A study of Komagataella phaffii GS115 with 3 samples.

Results

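The 10 genes described here encode enzymes of glycolysis in Komagataella phaffii, a yeast that can grow on methanol and was long called Pichia pastoris, and they were chosen by locus tag from the 5040 genes measured. RNA-seq of ribosome-depleted RNA was made for 3 libraries: strain GS115 after treatment with H2O2, a GS115-derived strain deficient in hmt grown in regular culture, and untreated GS115 in regular culture. GS115 is a histidine auxotroph that is widely used as an expression host, and it is the background of all 3 libraries. The sources used here do not give the dose and length of the H2O2 exposure, the culture medium, the carbon source or the locus tag of hmt, and the hmt-deficient label was therefore not checked against the level of that gene. Each group holds 1 library, so condition and library cannot be told apart, no difference has a replicate check, and no p-value is given.

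Glycolysis turns glucose 6-phosphate into pyruvate. In the preparatory phase, glucose 6-phosphate isomerase (PGI1) makes fructose 6-phosphate, and phosphofructokinase (with subunits encoded by PFK1 and PFK2 among its parts) spends ATP on it. Aldolase (FBA1-1) splits the product, and triose-phosphate isomerase (TPI1) interconverts the products. In the payoff phase, glyceraldehyde 3-phosphate dehydrogenase (TDH3, also called GAP), phosphoglycerate kinase (PGK1), phosphoglycerate mutase (GPM1), enolase (ENO1) and pyruvate kinase (CDC19) lead to pyruvate and yield ATP and NADH. The phosphofructokinase and pyruvate kinase steps run in the glycolytic direction only, whereas the other steps are shared with gluconeogenesis. In K. phaffii the promoter of the TDH3 gene is in common use for constitutive expression of foreign proteins. The gene names follow Saccharomyces cerevisiae and came with the list of locus tags. The reference gene table used here repeats the locus tag as the symbol of every gene, so the names were not checked against protein sequence, and other genes of the pathway, such as hexokinase or fructose 1,6-bisphosphatase, were not analysed here.

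Glycolytic transcripts were far higher in the H2O2-treated library than in the other libraries. Their levels are in FPKM, the number of fragments divided by gene length and by library size, so they can be compared between genes of different length. FPKM is a share of a library, and a larger share cannot be told apart from a smaller total of other RNA. The 10 genes together came to 102548 FPKM in the H2O2-treated, 15825 FPKM in the hmt-deficient and 13582 FPKM in the untreated library. This was 9.58% of the summed FPKM after H2O2, 1.69% in the hmt-deficient strain and 1.33% in untreated GS115. The sum was 7.55 times as high in the H2O2-treated as in the untreated library, and 1.17 times as high in the hmt-deficient as in the untreated library. The median level of the 10 genes was 9551 FPKM after H2O2, 1263 FPKM in the hmt-deficient strain and 1160 FPKM in untreated GS115. The 10 most abundant transcripts of the whole library included 6 of these genes after H2O2, 1 in the hmt-deficient strain and 1 in untreated GS115. The H2O2-treated library had 8 of them among its 100 most abundant transcripts, against 3 in the hmt-deficient and 1 in the untreated library.

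**Figure D1:**
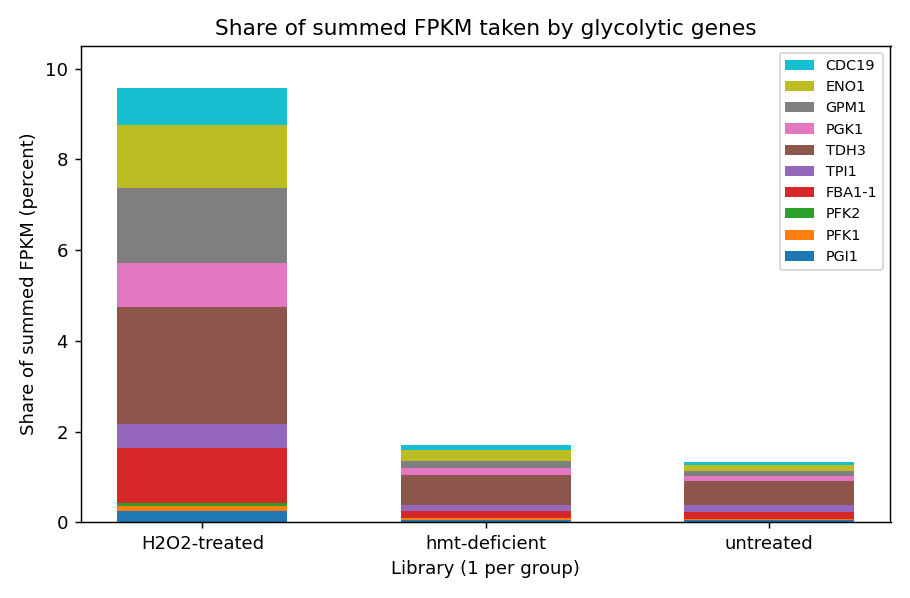
Share of the summed FPKM of each library (percent, y axis) taken by the 10 glycolytic genes, stacked by gene, for the H2O2-treated, hmt-deficient and untreated library (1 library each, no error bars). The stack reaches 9.58% after H2O2, against 1.69% and 1.33% in the hmt-deficient and untreated library.

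In the preparatory phase, PGI1 (PAS_chr3_0456) stood at 2722 FPKM in the H2O2-treated, 411 FPKM in the hmt-deficient and 545 FPKM in the untreated library. PFK1 (PAS_chr2-1_0402) stood at 1014 FPKM in the H2O2-treated, 404 FPKM in the hmt-deficient and 130.2 FPKM in the untreated library. PFK2 (PAS_chr1-4_0047) stood at 732 FPKM in the H2O2-treated, 145 FPKM in the hmt-deficient and 119 FPKM in the untreated library. These phosphofructokinase subunit transcripts were the lowest of the 10 in every library. FBA1-1 (PAS_chr1-1_0072), an aldolase gene, stood at 13008 FPKM after H2O2, 1391 FPKM in the hmt-deficient strain and 1591 FPKM in untreated GS115. TPI1 (PAS_chr3_0951) stood at 5797 FPKM after H2O2, 1136 FPKM in the hmt-deficient strain and 1504 FPKM in untreated GS115. PGI1, FBA1-1 and TPI1 shared 1 pattern, with the H2O2-treated library highest and the hmt-deficient library lowest, whereas for PFK1 and PFK2 the untreated library was lowest.

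In the payoff phase, TDH3 (PAS_chr2-1_0437) stood at 27518 FPKM in the H2O2-treated, 6263 FPKM in the hmt-deficient and 5330 FPKM in the untreated library. It was the highest of the 10 in every library and the most abundant of all 5040 transcripts after H2O2, while it held rank 7 in the hmt-deficient and rank 9 in the untreated library. PGK1 (PAS_chr1-4_0292) stood at 10386 FPKM after H2O2, 1530 FPKM in the hmt-deficient strain and 1226 FPKM in untreated GS115. GPM1 (PAS_chr3_0826) stood at 17695 FPKM after H2O2, 1395 FPKM in the hmt-deficient strain and 1095 FPKM in untreated GS115. GPM1 thus held rank 4 of all transcripts after H2O2, against rank 106 in the hmt-deficient and rank 175 in the untreated library. ENO1 (PAS_chr3_0082) stood at 14962 FPKM after H2O2, 2167 FPKM in the hmt-deficient strain and 1417 FPKM in untreated GS115. CDC19 (PAS_chr2-1_0769), the pyruvate kinase gene of the last step, stood at 8715 FPKM after H2O2, 984 FPKM in the hmt-deficient strain and 624 FPKM in untreated GS115. All 5 payoff genes had the same order of libraries, with H2O2-treated highest, hmt-deficient next and untreated lowest.

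**Figure D2:**
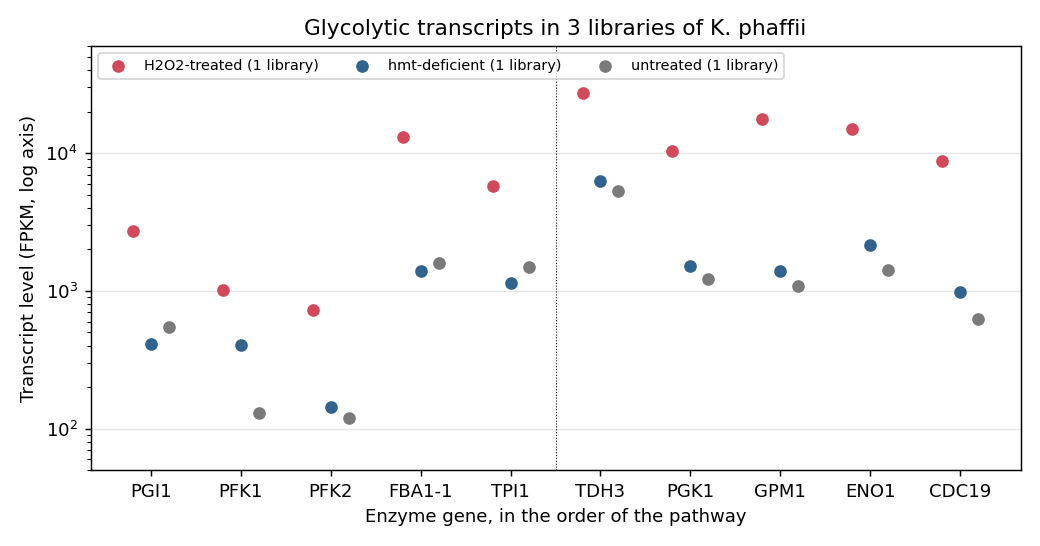
Transcript level (FPKM, log axis) of the 10 glycolytic genes in pathway order, with 1 point per library and the dotted line between the preparatory and the payoff phase. The H2O2-treated point lies highest for every gene, from 732 FPKM for PFK2 to 27518 FPKM for TDH3, and the hmt-deficient and untreated points lie close together except for PFK1.

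The first comparison set H2O2-treated against untreated GS115 and asked which transcripts differed after exposure to this oxidant. All 10 genes were at least 2-fold higher in the H2O2-treated library, as were 441 of the 4964 genes tested (8.88%). At 4-fold, 9 of the 10 genes were higher, beside 2.60% of all genes tested. The 129 genes that were at least 4-fold higher thus included 9 glycolytic genes (6.98%). The largest difference was that of GPM1, at 17695 FPKM after H2O2 against 1095 FPKM untreated, which is 16.2-fold higher (95% counting interval 15.9 to 16.5). CDC19 was 14.0-fold higher (13.7 to 14.2) and ENO1 was 10.6-fold higher (10.4 to 10.7). These 3 genes encode the last enzymes of the pathway.

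PGK1 was 8.47-fold higher after H2O2 (8.36 to 8.59), and FBA1-1 was 8.17-fold higher (8.07 to 8.28). The phosphofructokinase subunit genes were 7.79-fold (PFK1, 7.58 to 8.0) and 6.14-fold (PFK2, 5.96 to 6.32) higher. TDH3 was 5.16-fold higher (5.13 to 5.20) and PGI1 was 5.0-fold higher (4.91 to 5.09). The smallest difference was that of TPI1, at 5797 FPKM after H2O2 against 1504 FPKM untreated, which is 3.85-fold higher (3.80 to 3.91) and the only 1 of the 10 under 4-fold. These intervals come from fragments recovered from the FPKM values and cover counting error only. By the reference gene lengths, at least 5181 fragments (PFK2, untreated) lay behind every member value. Counting error was therefore small beside the differences between the H2O2-treated and untreated libraries.

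On the log2 scale of FPKM plus 1, the median ratio of the 10 genes after H2O2 was 2.99, against -0.38 for all genes tested. The members ran from 1.95 to 4.01, while the quartiles of all genes lay at -1.02 and 0.24. Relative to the median of all genes the 10 ran from 2.33 (TPI1) to 4.40 (GPM1). Only 133 of the 4964 genes tested had a ratio as high as that of TPI1 or higher, the 10 members included. Among the 1525 genes whose untreated level lay within the members' range (119 to 5330 FPKM), 9.25% were higher and 28.8% lower by 2-fold or more after H2O2, and their median log2 ratio was -0.36. That match is by untreated level only. Of the 20 most abundant transcripts after H2O2, 7 were members and 13 were not, and 6 of these 13 were at least 2-fold higher too. The payoff genes had a median of 3.40 and the preparatory genes 2.61, with overlapping ranges (2.37 to 4.01 and 1.95 to 3.03). The median was 2.95 for PFK1, PFK2 and CDC19, the genes of the 1-way steps, and 3.03 for the 7 genes of the reversible steps.

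**Figure D3:**
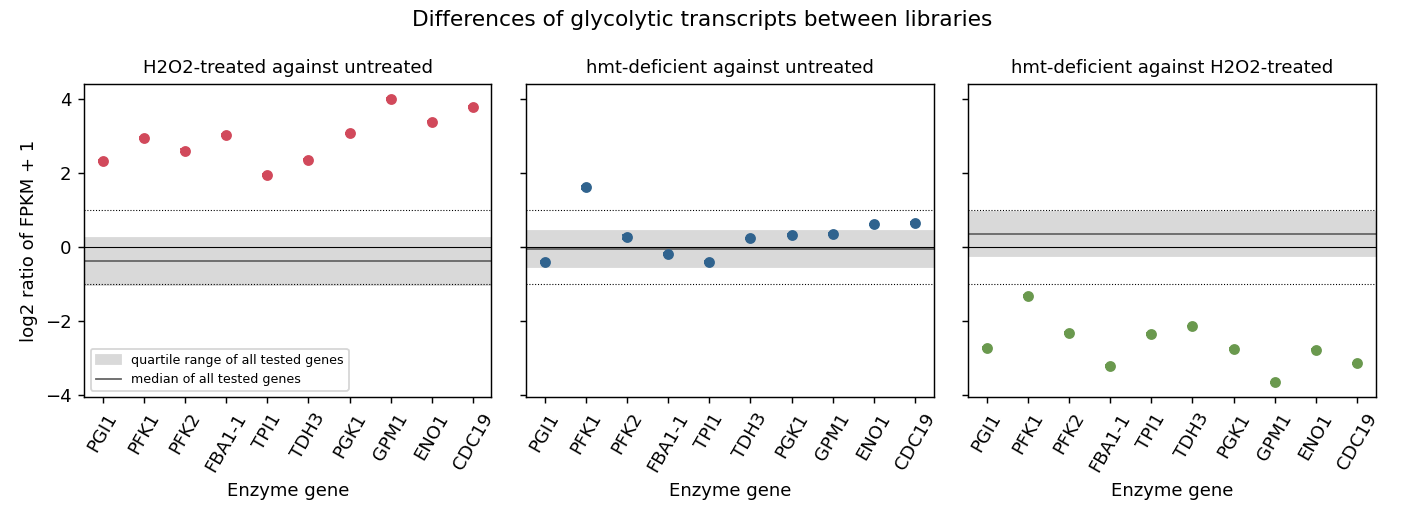
log2 ratio of FPKM plus 1 of each glycolytic gene in the 3 comparisons, with 95% counting intervals smaller than the points, beside the median (line) and quartile range (grey band) of all genes tested; dotted lines mark 2-fold. The 10 genes lie from 1.95 to 4.01 for H2O2-treated against untreated, from -0.41 to 1.62 for hmt-deficient against untreated, and from -3.66 to -1.33 for hmt-deficient against H2O2-treated.

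Transcripts of the hmt-deficient strain were next compared with those of untreated GS115. Of the 10 genes only PFK1 was past 2-fold. It stood at 404 FPKM in the hmt-deficient against 130.2 FPKM in the untreated library, 3.10-fold higher (95% counting interval 3.01 to 3.19). None of the 10 was at least 2-fold lower. Of the 4992 genes tested, 11.1% were higher and 11.0% lower by 2-fold or more, so a count of 1 in 10 is near the background. The median log2 ratio of the 10 genes was 0.30, against -0.07 for all genes tested. Among the same 1525 genes at the members' untreated level, 7.74% were higher and 20.6% lower by 2-fold or more, and their median log2 ratio was -0.33.

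The other 9 genes lay under 2-fold in the hmt-deficient strain. CDC19 stood at 984 FPKM in the hmt-deficient against 624 FPKM in the untreated library, a ratio of 1.58 (1.54 to 1.61), and ENO1 at 2167 against 1417 FPKM, a ratio of 1.53 (1.51 to 1.55). The ratio was 1.27 for GPM1 (1.25 to 1.3), 1.25 for PGK1 (1.23 to 1.27) and 1.17 for TDH3 (1.16 to 1.19). All 5 payoff genes therefore had ratios above 1. Their log2 ratios ran from 0.23 to 0.66, while the quartiles of all genes tested lay at -0.55 and 0.44. PFK2, which encodes another subunit of the same enzyme as PFK1, had a ratio of 1.21 (1.17 to 1.26). PGI1 had a ratio of 0.754 (0.736 to 0.773), TPI1 of 0.755 (0.740 to 0.771) and FBA1-1 of 0.874 (0.860 to 0.889). FBA1-1 came to a log2 ratio of 0.0013, in place of -0.19, when the authors' normalized column was used for the hmt-deficient library. That column has the summed FPKM of the H2O2-treated library, and the untreated values were left as FPKM. With both libraries scaled to the same total (TPM), the FBA1-1 ratio was -0.07. The sign of the other 9 was the same under every scaling tried. With differences this small and 1 library per strain, the spread between cultures is unknown.

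The last comparison was between the hmt-deficient strain and H2O2-treated GS115, where strain and treatment differ together. It uses the H2O2-treated library of the first comparison and the hmt-deficient library of the second, so it is not a separate test of either. All 10 genes were lower by 2-fold or more in the hmt-deficient library, beside 323 of the 4966 genes tested (6.50%). At 4-fold, 9 of the 10 were lower, beside 0.906% of all genes tested. Of the 45 genes at least 4-fold lower, 9 were glycolytic. GPM1 stood at 1395 FPKM in the hmt-deficient against 17695 FPKM in the H2O2-treated library, 12.7-fold lower (12.5 to 12.9). FBA1-1 was 9.35-fold lower (9.24 to 9.47) and CDC19 8.86-fold lower (8.75 to 8.97). PFK1 was the least different, at 404 FPKM in the hmt-deficient against 1014 FPKM in the H2O2-treated library, 2.51-fold lower (2.47 to 2.55). TDH3, the most abundant of the 10, was 4.39-fold lower (4.37 to 4.42). The median log2 ratio of the 10 was -2.74, against 0.34 for all genes tested. Abundant transcripts of the H2O2-treated library were mostly lower in the hmt-deficient library. Among the 239 genes within the members' range of level after H2O2 (732 to 27518 FPKM), the 10 members included, 58.2% were lower and 5.86% higher by 2-fold or more, and the median log2 ratio was -1.22. GPM1 ranked 5, FBA1-1 ranked 9 and CDC19 ranked 11 from the lowest ratio among the 4966 genes tested, while PFK1 ranked 187.

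**Figure D4:**
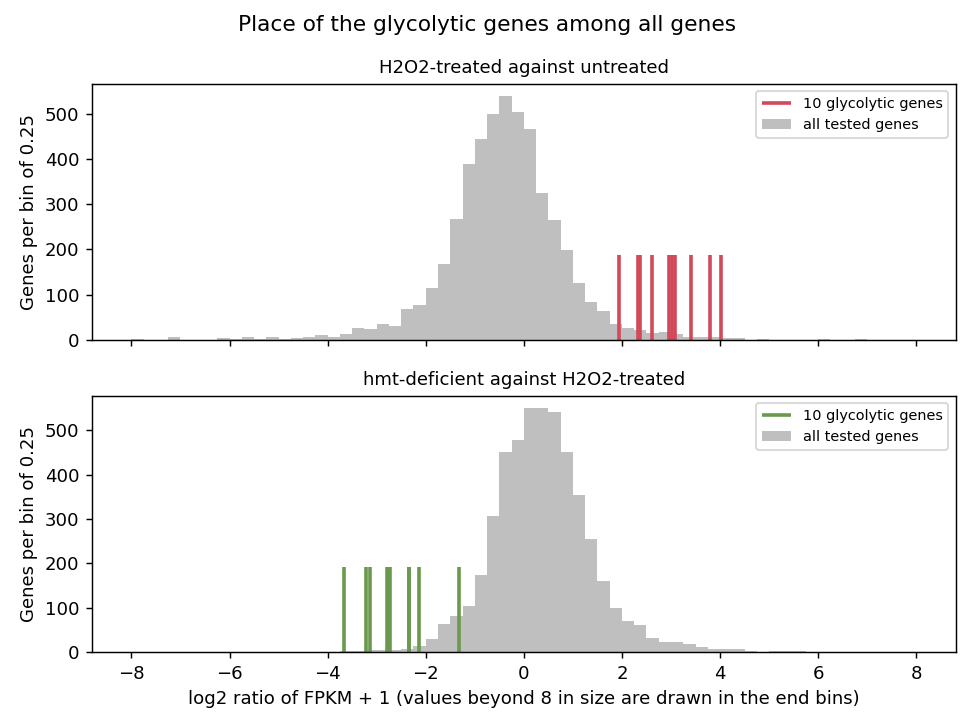
Number of genes per bin of 0.25 (y axis) by log2 ratio of FPKM plus 1 (x axis) for all genes tested (grey), with the 10 glycolytic genes as coloured lines, for H2O2-treated against untreated (top) and hmt-deficient against H2O2-treated (bottom). The glycolytic genes lie in the upper tail in the top panel, from 1.95 to 4.01, and in the lower tail in the bottom panel, from -3.66 to -1.33.

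Levels of the 10 genes relative to each other do not depend on how a library is scaled. TDH3 took 26.8% of the summed FPKM of the 10 genes after H2O2, against 39.6% in the hmt-deficient and 39.2% in the untreated library. GPM1 took 17.3% after H2O2, against 8.82% in the hmt-deficient and 8.06% in the untreated library. TPI1 took 5.65% after H2O2, against 7.18% in the hmt-deficient and 11.1% in the untreated library. Within the group, the treated library was therefore less dominated by TDH3. The payoff genes together took 77.3% of the summed FPKM of the 10 after H2O2, 78.0% in the hmt-deficient strain and 71.4% in untreated GS115. The highest member exceeded the lowest 37.6-fold after H2O2, 43.3-fold in the hmt-deficient strain and 44.7-fold in untreated GS115.

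The balance between neighbouring steps was compared for 6 pairs from aldolase to pyruvate kinase. FPKM of TPI1 over FBA1-1 was 0.446 after H2O2 (95% counting interval 0.443 to 0.449), 0.817 in the hmt-deficient strain (0.801 to 0.832) and 0.945 in untreated GS115 (0.928 to 0.963). FPKM of GPM1 over PGK1 was 1.70 after H2O2 (1.69 to 1.71), 0.912 in the hmt-deficient strain (0.896 to 0.928) and 0.893 in untreated GS115 (0.874 to 0.913). GPM1 was thus above PGK1 in the H2O2-treated library and below it in the other libraries. Enolase and the mutase also changed places, since ENO1 over GPM1 was 0.846 after H2O2 (0.842 to 0.849), 1.55 in the hmt-deficient strain (1.53 to 1.58) and 1.29 in untreated GS115 (1.27 to 1.32). TPI1 over TDH3 was 0.211 after H2O2 (0.209 to 0.212), 0.181 in the hmt-deficient strain (0.179 to 0.184) and 0.282 in untreated GS115 (0.278 to 0.287). PGK1 over TDH3 was 0.377 after H2O2 (0.376 to 0.379), 0.244 in the hmt-deficient strain (0.241 to 0.247) and 0.230 in untreated GS115 (0.227 to 0.233). CDC19 over ENO1 was 0.582 after H2O2 (0.580 to 0.585), 0.454 in the hmt-deficient strain (0.447 to 0.461) and 0.440 in untreated GS115 (0.432 to 0.449). For GPM1 over PGK1 and for CDC19 over ENO1, the intervals of the hmt-deficient and untreated libraries overlapped. From the first to the last gene of the list, CDC19 over PGI1 was 3.20 after H2O2 (3.18 to 3.22), 2.39 in the hmt-deficient strain (2.34 to 2.45) and 1.15 in untreated GS115 (1.12 to 1.17).

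The PFK1 and PFK2 transcripts were nearly level in untreated GS115 and furthest apart in the hmt-deficient strain. PFK1 over PFK2 in FPKM was 1.38 after H2O2 (1.37 to 1.40), 2.79 in the hmt-deficient strain (2.72 to 2.86) and 1.09 in untreated GS115 (1.05 to 1.13). In the hmt-deficient strain PFK1 came close to PGI1 (0.982 of its FPKM, 0.961 to 1.00), against 0.372 after H2O2 (0.369 to 0.376) and 0.239 in untreated GS115 (0.232 to 0.246). PFK1 and PFK2 are the longest of the 10 genes, at 2970 and 2827 bp, while the other 8 run from 747 to 1683 bp. The 573 tested genes of 2500 bp or more had a median log2 ratio of 0.15 for hmt-deficient against untreated, and 10.3% of them were at least 2-fold higher. For the 2367 genes within the length range of the other 8 members, these values were -0.05 and 12.2%. PFK1 and PFK2 have similar lengths and log2 ratios of 1.62 and 0.28, and the part of length in either was not tested. After H2O2, the 566 genes of 2500 bp or more had a median log2 ratio of -0.68, and 3.18% of them were at least 2-fold higher, against -0.27 and 11.2% of the 2358 genes in the shorter range.

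Among themselves the 10 genes kept TDH3 first, and PGI1, PFK1 and PFK2 as the last 3 in that order, in every library. PGI1 and PFK1 did not differ beyond counting error in the hmt-deficient library, at 411 FPKM (404 to 418) and 404 FPKM (398 to 409). There, FBA1-1 at 1391 FPKM (1375 to 1408) and GPM1 at 1395 FPKM (1376 to 1415) were not separated either. In untreated GS115 the order after TDH3 was FBA1-1, TPI1, ENO1, PGK1, GPM1 and CDC19. After H2O2 it was GPM1, ENO1, FBA1-1, PGK1, CDC19 and TPI1, and in the hmt-deficient strain ENO1, PGK1, GPM1, FBA1-1, TPI1 and CDC19. TPI1 accordingly moved to place 7 of 10 after H2O2 and place 6 in the hmt-deficient strain, against place 3 in untreated GS115.

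The 10 genes are scattered over the genome, and none is next to another. Their 20 adjacent genes were read from the reference gene order, and 18 of these passed the minimum of 10 FPKM. Of these 18 neighbours, 0 were higher and 3 lower by 2-fold or more after H2O2, with log2 ratios from -1.93 to 0.96 and a median of -0.19. Over all genes tested, 8.88% were higher and 25.8% lower by that much. GPM1, the gene with the largest difference after H2O2, lies between PAS_chr3_0825 at 71.95 FPKM after H2O2 against 84.5 FPKM untreated, and PAS_chr3_0829 at 92.5 FPKM after H2O2 against 68.5 FPKM untreated. For hmt-deficient against untreated, 2 of the 18 neighbours were higher and 2 lower by 2-fold or more, beside 11.1% and 11.0% of all genes tested. For hmt-deficient against H2O2-treated, 2 were higher and 0 lower, beside 23.0% and 6.50% of all genes tested. PFK1, the member with the largest difference for hmt-deficient against untreated, lies between PAS_chr2-1_0401 and PAS_chr2-1_0403. PAS_chr2-1_0401 stood at 43.3 FPKM in the hmt-deficient against 51.2 FPKM in the untreated library. PAS_chr2-1_0403 stood at 2.54 FPKM in the hmt-deficient against 3.40 FPKM in the untreated library.

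The 3 libraries differed in depth and in the spread of values. The library totals that turn FPKM back into whole fragments were 22355455 in the H2O2-treated, 18281686 in the hmt-deficient and 15358139 in the untreated library. With the reference lengths, fragments recovered over all genes came to 103.1%, 102.0% and 99.3% of these totals, in that order. Why these sums differed from the totals was not tested. Median FPKM over all genes was 51.1 after H2O2, 68.3 in the hmt-deficient strain and 69.8 in untreated GS115. The hmt-deficient and H2O2-treated values were deposited with 2 decimals and the untreated values with more, and the sources used here do not say whether the libraries were made together.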

How the data were processed

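RNA-seq values of 5040 genes in 3 libraries were analysed as deposited. Per the file headers, the authors gave FPKM for every gene. Per the submitters' processing notes, FastQC 0.12.1, Trimmomatic 0.39, HISAT2, featureCounts and HTSeq were used, with no role given. The sources used here name no genome build or annotation. The authors also deposited a column headed as normalized for the H2O2-treated library (equal to FPKM) and the hmt-deficient library (FPKM times 1.14), read as a score and used as an alternative only.

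The 10 members and their division into phases were chosen with earlier results of these data known. Sub-lists based on protein signatures or product names were planned and not run, because the table used (RefSeq, assembly ASM2700v1, 5040 of 5040 locus tags matched) holds neither. It served for gene order and length, and no coordinates are printed because the build of the files is not named. Named genes are the 10 members and the genes beside the member furthest from untreated in each comparison with untreated (GPM1 and PFK1). FPKM times length gave whole fragments once a library total was fitted: 94.5%, 94.7% and 96.8% of 292, 457 and 3557 checked genes came within 0.1 of a whole number in the H2O2-treated, hmt-deficient and untreated library. For the members this held for 8 of 10 in the untreated library, and TPI1 and PFK2 may have another length in the authors' annotation, which cancels in ratios between libraries. Fragment counts and interval widths of TPI1 and PFK2, also in ratios to other members, rest on the reference length. Ratios between libraries have exact 95% intervals (Clopper-Pearson) from these fragments, levels have Poisson intervals, and both cover counting error only.

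For each pair, log2((FPKM + 1)/(FPKM + 1)) was computed for genes reaching 10 FPKM in 1 or both libraries, and a gene was counted at 2-fold or more. Such values understate changes of low genes. No test between conditions was run. Fitting of totals, calling and intervals were tested on simulated data. Alternatives were another pseudocount, minimum, scaling or fold threshold. Python 3.11.15, numpy 2.4.6, pandas 2.3.3 and scipy 1.17.1 were used.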

Additional observations from a re-analysis of the deposited data

How the results depend on the processing

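Each group holds 1 library, so no replicate could be left out. No paired analysis was possible because the labels give 1 library per group and no replicate numbers. Under the pseudocounts, minimums and scalings tried, all 10 genes stayed past 2-fold, higher after H2O2 than untreated and lower in the hmt-deficient than in the H2O2-treated library, and PFK1 alone stayed past 2-fold for hmt-deficient against untreated. There, a threshold of 1.5 gave 3 genes and a threshold of 4 gave 0. The median log2 ratio of the 10 genes for H2O2-treated against untreated was 3.38 when centred on the median of all genes and 3.38 on a trimmed mean, in place of 2.99. For hmt-deficient against H2O2-treated it was -3.08 and -3.10 with these centrings and -2.55 as TPM, in place of -2.74. The authors' normalized columns gave -2.55 too, and since their totals are equal they are no separate check from TPM. For hmt-deficient against untreated the median was 0.42 as TPM, in place of 0.30. It was 0.40 with totals without the 20 highest genes and 0.43 with totals without the 10 members. With the authors' normalized column, whose total is not matched to the untreated library, it was 0.49. These are changes of scale by construction, and the distance of the 10 genes from the median of all genes stayed at 3.31 to 3.39, 0.36 to 0.37 and -3.10 to -3.01 in the 3 comparisons. Leaving out 1 member at a time gave medians of 2.95 to 3.03, 0.28 to 0.32 and -2.76 to -2.73 in the order H2O2-treated against untreated, hmt-deficient against untreated and hmt-deficient against H2O2-treated. The share of the 10 genes was 11.0% (H2O2-treated), 1.98% (hmt-deficient) and 1.59% (untreated) of a total without the other genes among the 20 highest, and 11.2%, 1.80% and 1.53% of recovered fragments. Of 300 alternative log2 ratios of single genes, 161 moved by more than the counting interval, which is narrow at this depth, and no gene past 2-fold changed sign. The split of all genes past 2-fold moved with scaling: 25.6% of them were higher after H2O2, against 50.8% when centred. For hmt-deficient against untreated, 50.1% were higher, or 59.8% as TPM. The authors' normalized column, with its total not matched to the untreated library, gave 65.3%. For hmt-deficient against H2O2-treated, 78.0% were higher, or 53.6% when centred.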
